A study of Mus musculus with 12 samples.

Results

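The 10 genes described here make up the core of antigen presentation on MHC class I: the heavy chains H2-K1, H2-D1 and H2-T23, the light chain B2m, the peptide loading genes Tap1, Tap2 and Tapbp, the transactivator Nlrc5, and the immunoproteasome subunits Psmb8 and Psmb9. They were picked by gene symbol, with no measured value in the rule, but earlier results of these data were known when they were chosen. All 10 were found among the 55401 gene identifiers of the count tables. All 10 also passed the filter on low counts, which 16451 identifiers passed.

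The counts came from microglia of male mice sorted as CD45int CD11b+ cells 3 days after surgery. In all 4 groups both Hdac3 alleles carried loxP sites. Wild-type (WT) mice had 2 intact copies of Cx3cr1, whereas HDAC3-miKO (miKO) mice carried CreER in place of 1 copy, so they lacked that Cx3cr1 allele as well as, after tamoxifen, microglial Hdac3. Mice that received tamoxifen did so at 6 to 8 weeks of age for 5 days, and surgery followed at least 1 month later. Transient focal cerebral ischemia (tFCI) was a 60 min occlusion of the left middle cerebral artery, and Sham mice had the same anesthesia and exposure of the artery without occlusion. The 4 groups, WT-Sham and WT-tFCI and their miKO counterparts, had 3 libraries each, and every library combined 3 to 4 hemispheres, so that spread between libraries is spread between pools. CreER driven by Cx3cr1 also acts in other cells that express this receptor, and their share among the sorted cells rests on the CD45int gate. The paper gave the delay before surgery as time for blood monocytes to be replaced from progenitors with intact HDAC3. It also reported unchanged Hdac3 RNA in infiltrated macrophages sorted after tFCI. The labels put replicate 1 of each group in batch 1 and replicates 2 and 3 in batch 2.

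Class I molecules show peptides from inside the cell to CD8 T cells and natural killer cells. Proteasomes cut cytosolic proteins, the TAP transporter carries the peptides into the endoplasmic reticulum, tapasin holds an empty heavy chain with B2m beside it, and the loaded complex travels to the cell surface. Interferons induce the immunoproteasome subunits, which take the place of constitutive catalytic subunits, and NLRC5 is brought to an enhanceosome on class I promoters by the RFX complex. In the healthy brain microglia carry little surface class I, and it is known to increase in injury and ageing.

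Of the members, 8 lie on mouse chromosome 17 in the coordinates of build GRCm38, within or beside the MHC. H2-K1 spans 33996017 to 34000347 on the minus strand and H2-D1 spans 35262730 to 35267499 on the plus strand. Between them, Psmb9 (34181987 to 34187764, minus), Tap1 (34187553 to 34197225, plus), Psmb8 (34197721 to 34201454, plus) and Tap2 (34203527 to 34216321, plus) sit side by side. H2-T23 (36029773 to 36032855, minus) and Tapbp (33915899 to 33929292, plus) complete the set on that chromosome. B2m is on chromosome 2 (122147686 to 122153083, plus) and Nlrc5 on chromosome 8 (94434356 to 94527272, plus).

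RefSeq promoter windows for build GRCm38.p6 were matched for 8 of the 10 members. The windows hold the 250 bases before each start in RefSeq, and Tap2 and Nlrc5 had no entry. The gene spans above are those of GENCODE, and by that annotation all 250 bases of the windows of H2-D1, Psmb8, Psmb9, Tap1 and Tapbp lie within exons of the same or another gene. The H2-D1 stretches printed here fall inside its stated span. H2-K1 and H2-D1, the classical heavy chains, were alike in this window: 170 of 194 aligned positions were identical (87.6%). Both carried the letters GGGATTCC, which resemble a site for NF-kB, followed by the reverse complement of GAANNGAAA, which resembles a site for interferon regulatory factors. They are shown because the same letters stand in the same order in both genes. Capitals mark the matches in these 30-base stretches, given 5′ to 3′ on each gene's strand, at chr17:34000429-34000458 (minus) and chr17:35262923-35262952 (plus).
H2-K1: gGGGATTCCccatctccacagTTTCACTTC
H2-D1: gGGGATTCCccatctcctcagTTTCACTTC
A second stretch lay nearer the start of H2-K1, H2-D1 and B2m, with TGACG, 20 bases and ATTGG, letters like the X2 and Y boxes of the enhanceosome on class I promoters. The stretches lie at chr17:34000359-34000388 (minus), chr17:35262993-35263022 (plus) and chr2:122147609-122147638 (plus).
H2-K1: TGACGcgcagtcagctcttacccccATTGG
H2-D1: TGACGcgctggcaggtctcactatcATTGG
B2m: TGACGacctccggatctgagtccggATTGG
This spaced pair was found in 30 of 32851 windows (0.091%) and, among the 8 members with a window, in these 3. No other spacing was searched, so these numbers describe this spacing alone. On either strand GGGATTCC was present in 0.889% of all windows, GAANNGAAA in 6.31%, TGACG in 17.8% and CCAAT, the reverse complement of ATTGG, in 33.8%. These matches describe letters only and say nothing about binding.

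Counts assigned to genes ranged from 7697864 to 9452222 per library, with 30.7 to 38.5% of reads on genes. The targeted gene, Hdac3, was measured at 35.0, 44.0 and 46.4 counts scaled to CPM (a count relative to the scaled total on genes of its library) in the WT-Sham libraries and at 25.8, 25.0 and 20.9 CPM in miKO-Sham, and at 54.0, 52.9 and 43.9 CPM in WT-tFCI, and at 36.0, 27.1 and 28.9 CPM in miKO-tFCI. It was lower in miKO by 1.76-fold in Sham (edgeR, adjusted p = 0.00281) and by 1.64-fold after tFCI (edgeR, adjusted p = 0.0127), the latter falling short without WT-tFCI 2 (log2FC -0.65, adjusted p = 0.0705). The summed CPM of 8 microglial markers ran from 21296.3 to 27941.3 in WT-Sham, 18349.4 to 22539.8 in miKO-Sham, 14116.1 to 15782.7 in WT-tFCI and 7329.9 to 14611.9 in miKO-tFCI, and none of the 8 was at 0. The 8 include Cx3cr1, of which miKO mice lacked 1 copy, with means of 3861.6, 1196.5, 1527.4 and 438 CPM in this order of groups. The log2FC was above 0 for 2 of the 8 in miKO-Sham vs. WT-Sham and for 0 in miKO-tFCI vs. WT-tFCI. The sum of 8 monocyte and macrophage markers ran from 36.2 to 100, 60.6 to 194, 408 to 669 and 590 to 980 in the same order, that of 7 neutrophil markers from 46.2 to 788, 309 to 328, 143 to 196 and 646 to 889, and that of 6 dendritic cell markers from 9.30 to 14.5, 12.2 to 13.6, 15.6 to 107 and 48.1 to 333. The sum of 5 markers of border-associated macrophages ran from 75.4 to 105, 42.0 to 189, 108 to 196 and 180 to 416 CPM, and that of 5 endothelial markers from 15.8 to 22.8, 9.61 to 15.3, 49.8 to 157 and 90.5 to 262. Those of 4 oligodendrocyte markers (29.7 to 36.1, 42.1 to 47.6, 45.8 to 105 and 85.6 to 144) and 4 astrocyte markers (178 to 185, 101 to 121, 148 to 197 and 153 to 376) are given in the same order of groups. So are those of 4 B cell markers (26.9 to 35.3, 4.16 to 13.1, 29.0 to 36.5 and 7.04 to 17.9), where the sum was lower in miKO under both surgeries. Of these 4, 2 could be tested. Under each surgery 1 of them was called lower in miKO and the other had a log2FC above 0, so the lower sums do not describe a shared fall. Sums of 4 neuron markers were 0.718 to 2.88, 11.1 to 15.5, 3.17 to 8.26 and 7.04 to 10.1, and those of 8 T and NK cell markers 0.672 to 4.09, 2.56 to 5.55, 1.27 to 4.79 and 1.76 to 12.9. Of the endothelial markers 4 of 5 were called higher after tFCI in WT and 5 of 5 in miKO. Of the 4 astrocyte markers 2 and 3 were called higher and 1 lower in each genotype, and all 3 oligodendrocyte markers tested were called higher in both. Called higher among all genes were 20.9% in WT and 21.9% in miKO. Of the 8 microglial markers 6 were called lower in WT and 8 in miKO, against 11.7% and 13.9% of all genes. In bulk samples a change in the makeup of the sorted cells and a change in RNA per cell cannot be told apart, and the part of these markers in the results below was not tested. Within miKO-Sham, replicate 1 (batch 1) and replicate 2 (batch 2) were closer to each other (chi-square of their counts of 2.85 per degree of freedom) than either was to replicate 3 (39.6 and 42.8), whereas in the other 3 groups the 2 libraries of batch 2 were the closest pair. Results that turn on miKO-Sham 3 are given without it.

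Per kilobase of exon, the members spanned a wide range of levels and kept nearly the same order in every group. In WT-Sham the mean CPM per kb was 2343.3 for B2m, 500 for H2-D1, 338 for H2-K1, 101 for H2-T23, 91.4 for Tapbp, 65.2 for Psmb8, 26.3 for Tap2, 18.0 for Psmb9, 10.1 for Tap1 and 0.668 for Nlrc5. Tapbp and Psmb8 changed places in WT-tFCI, which was the single change of order among the other groups. Together the members took 0.564 to 0.591% of the gene counts in WT-Sham, 0.812 to 0.872% in miKO-Sham, 0.778 to 0.783% in WT-tFCI and 0.630 to 0.696% in miKO-tFCI. The 4 ranges did not overlap, with miKO-Sham highest and WT-Sham lowest. H2-K1, H2-D1 and B2m alone took most of this, so the ranges describe mainly these 3 members. Their share was 0.453 to 0.478% in WT-Sham, 0.697 to 0.766% in miKO-Sham, 0.657 to 0.664% in WT-tFCI and 0.519 to 0.568% in miKO-tFCI. All these shares are of counts without TMM scaling.

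**Figure D1:**
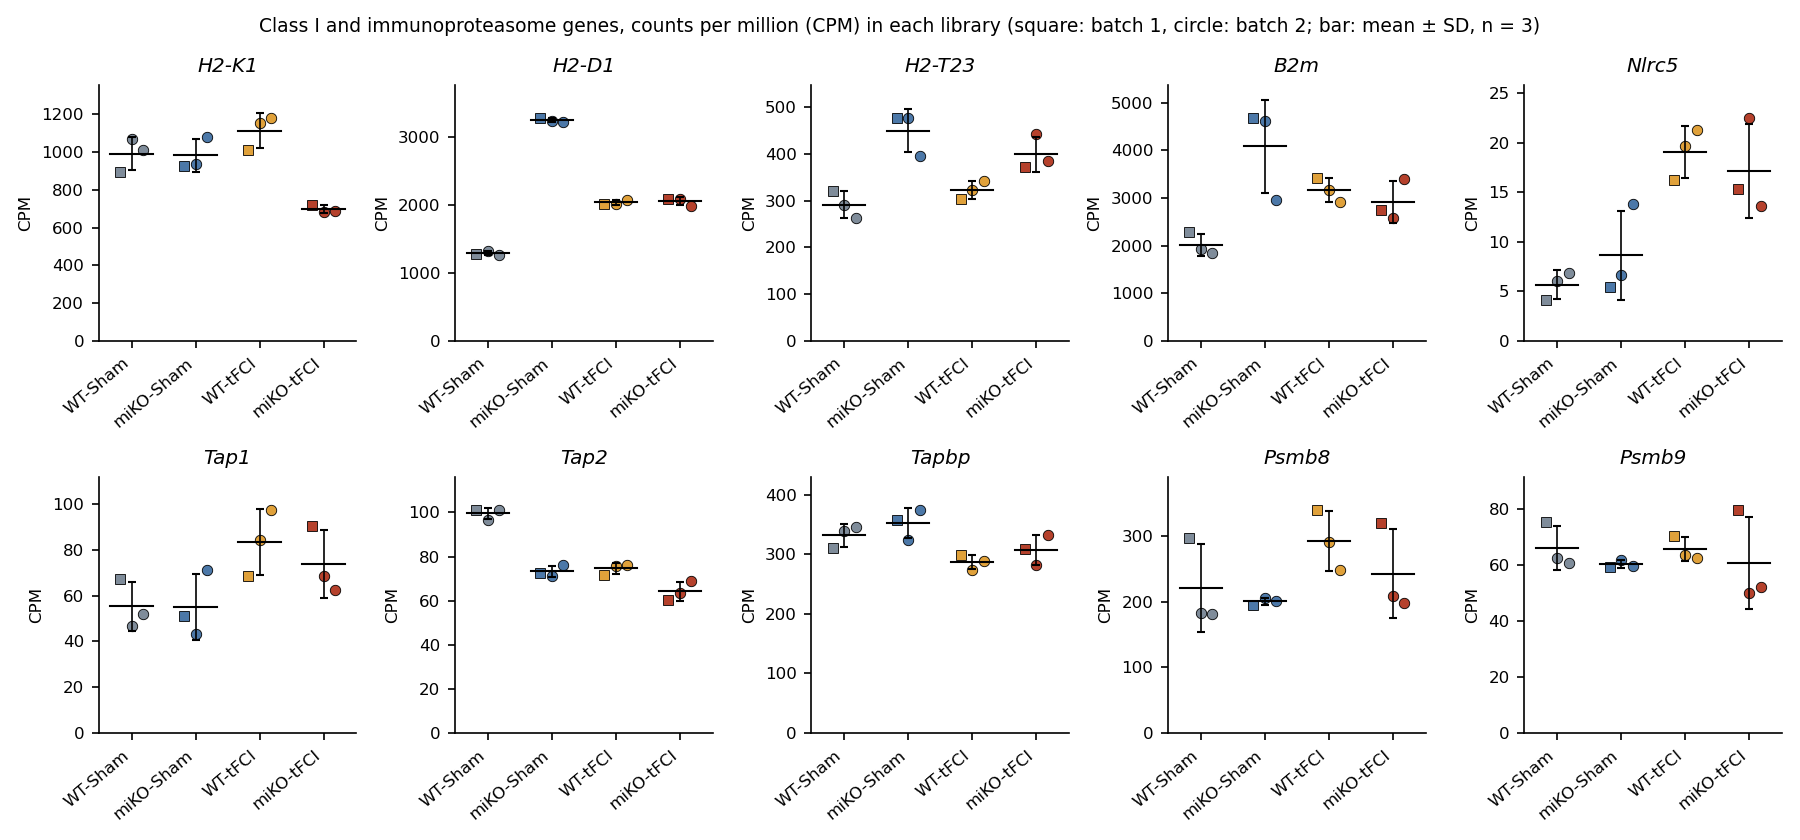
CPM of each member in every library (vertical axes, each from 0), with 3 libraries per group, squares for batch 1, circles for batch 2 and bars for the mean ± SD. H2-D1 in miKO-Sham (3218.5 to 3275.1 CPM) stands above all other groups, and H2-K1 in miKO-tFCI (683 to 722 CPM) stands below all other groups.

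Differences were tested across all 16451 genes with edgeR's quasi-likelihood test in 1 fit of all 12 libraries with a batch term, and p values were adjusted by the Benjamini-Hochberg method. A gene was called differentially expressed when the adjusted p was under 0.05 and the absolute log2 fold change (log2FC) above 0.58. In WT-tFCI vs. WT-Sham, 4 of 10 members were called higher (Nlrc5, H2-D1, B2m and Tap1) and 0 lower, against 20.9% of all genes tested called higher and 11.7% lower. In miKO-Sham vs. WT-Sham, 3 were called higher (H2-D1, B2m and H2-T23) and 0 lower, against 8.58% and 6.80% of all genes. In miKO-tFCI vs. miKO-Sham, Nlrc5 was called higher and H2-D1 lower, against 21.9% and 13.9% of all genes. H2-K1 was the 1 member called in miKO-tFCI vs. WT-tFCI, and it was lower, against 4.08% of all genes called higher and 4.71% lower. At an adjusted p under 0.05 with no fold limit, 5 members were higher and 1 lower in WT-tFCI vs. WT-Sham (23.5% and 15.4% of all genes), 1 and 3 in miKO-tFCI vs. miKO-Sham (24.5% and 17.7%), 3 and 1 for miKO-Sham against WT-Sham (9.94% and 8.12%) and 0 and 1 for miKO-tFCI against WT-tFCI (4.50% and 5.40%). These comparisons share groups, so their calls are not independent of each other, and the members were chosen with earlier results of these data known. The difference between the genotypes in the response to surgery (the interaction) was called for H2-D1 and B2m, both negative, against 2.57% of all genes called in that direction and 1.25% in the other. The median log2FC of the 10 members was 0.30 in WT-tFCI vs. WT-Sham, where that of all genes was 0.02, and -0.18 in miKO-tFCI vs. miKO-Sham, -0.14 after tFCI between genotypes and 0.05 in Sham between genotypes, where that of all genes was 0.03, 0.04 and 0.04.

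**Figure D2:**
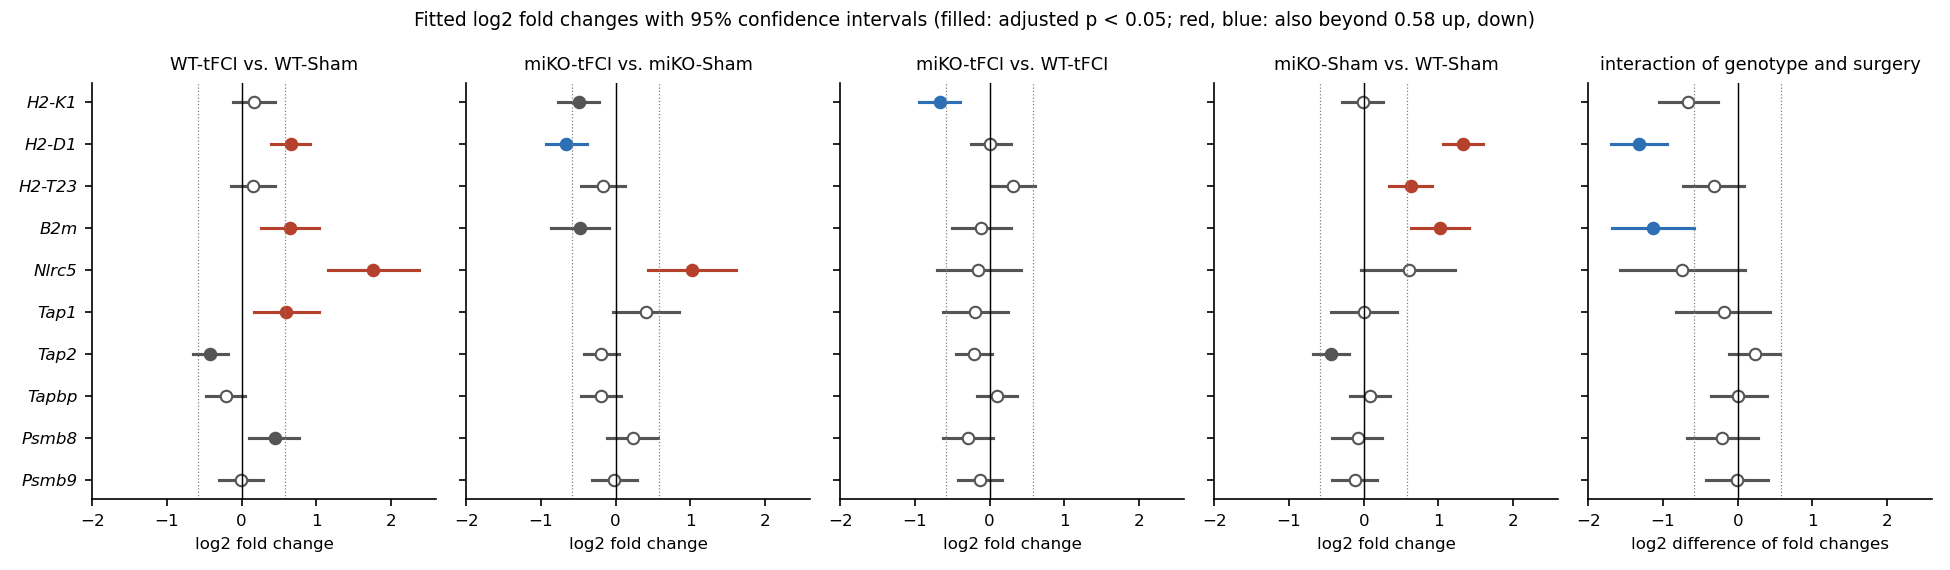
Fitted log2 fold changes of the 10 members (horizontal axes) with 95% confidence intervals in the 4 comparisons and the interaction, filled where the adjusted p was under 0.05 and red or blue where the change was also beyond 0.58 (dotted lines). H2-D1 is red in both comparisons with WT-Sham and blue in miKO-tFCI vs. miKO-Sham and in the interaction, whereas Psmb9 and Tapbp are open in every panel.

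H2-D1, one of the classical heavy chains of these mice, changed most clearly. It was measured at 1280.0, 1320.4 and 1265.6 CPM in WT-Sham, at 3275.1, 3228.6 and 3218.5 CPM in miKO-Sham, at 2016.1, 2010.8 and 2070.0 CPM in WT-tFCI and at 2085.8, 2078.6 and 1984.2 CPM in miKO-tFCI. The 2 tFCI groups overlapped each other, and both lay between the 2 Sham groups, which did not overlap with any other group. H2-D1 was 2.51-fold higher in miKO-Sham than in WT-Sham (log2FC 1.33, 95% interval 1.06 to 1.60, edgeR, adjusted p = 4.54e-06). It was 1.58-fold above WT-Sham in WT-tFCI (log2FC 0.66, SE 0.13, edgeR, adjusted p = 0.000871), and it fell by 0.66 on the log2 scale from miKO-Sham to miKO-tFCI (SE 0.13, edgeR, adjusted p = 0.000728). After tFCI the genotypes differed by 0.01 on the log2 scale, with a 95% interval from -0.25 to 0.28. The interaction was -1.32 (SE 0.18, edgeR, adjusted p = 0.000796), and it was -1.31 within batch 1 and -1.32 within batch 2. The 3 differences and the interaction of H2-D1 kept their direction and passed the test in every alternative run and without each library in turn.

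H2-K1, the other classical heavy chain measured, behaved differently although it lies in the same complex. The libraries stood at 896, 1069.2 and 1013.1 CPM in WT-Sham, 929, 937 and 1082.3 CPM in miKO-Sham, 1010.4, 1152.9 and 1181.8 CPM in WT-tFCI, and at 722, 683 and 687 CPM in miKO-tFCI. The first 3 groups overlapped, and every miKO-tFCI library was below all 9 others. H2-K1 was 1.59-fold lower in miKO-tFCI than in WT-tFCI (log2FC -0.67, SE 0.13, edgeR, adjusted p = 0.00483), with within-batch differences of -0.49 and -0.77. It also fell from miKO-Sham to miKO-tFCI, by 0.49 on the log2 scale (SE 0.13, edgeR, adjusted p = 0.00691), below the fold limit for a call. Between the Sham groups it differed by -0.01, with a 95% interval from -0.29 to 0.26. The interaction of -0.66 did not pass (SE 0.18, edgeR, adjusted p = 0.0608), but it did without miKO-tFCI 1 (-0.76, adjusted p = 0.0238). The lowest sum of microglial markers (7329.9 CPM) and the highest of monocyte and macrophage markers (980 CPM) were those of miKO-tFCI 1, where H2-K1 was 722 CPM. The highest neutrophil sum (889 CPM) was that of miKO-tFCI 2. In miKO-tFCI 3 the microglial sum was 14611.9 CPM, within the range of WT-tFCI (14116.1 to 15782.7 CPM). The part of these markers in the H2-K1 result was not tested.

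The ratio of H2-D1 to H2-K1 within a library, which needs no scaling between libraries, was chosen after these values were seen and is given as a description. It was 1.43, 1.23 and 1.25 in WT-Sham, 3.52, 3.45 and 2.97 in miKO-Sham, 2.00, 1.74 and 1.75 in WT-tFCI and 2.89, 3.04 and 2.89 in miKO-tFCI. Both miKO groups lay above both WT groups, and WT-tFCI lay above WT-Sham. The mean ratios were 1.30 ± 0.108, 3.31 ± 0.298, 1.83 ± 0.143 and 2.94 ± 0.0897 (SD, n = 3). On the log2 scale the genotypes differed by 1.30 in batch 1 and 1.37 in batch 2 in Sham, and by 0.53 and 0.76 after tFCI. Heavy chain genes resemble each other, so the share of their exonic 150-base stretches that occurs in another gene was counted: it was 0% for H2-K1, 1.35% for H2-D1 (H2-Q1) and 0.331% for H2-T23, but 9.63%, 12.8% and 14.5% for 50-base stretches.

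H2-T23 encodes Qa-1b, a nonclassical heavy chain that binds the CD94/NKG2A receptor of natural killer cells. It was measured at 320, 291 and 262 CPM in WT-Sham, 476, 477 and 396 CPM in miKO-Sham, 304, 322 and 342 CPM in WT-tFCI, and at 371, 442 and 385 CPM in miKO-tFCI. The miKO libraries were above the WT libraries of the same surgery in both settings. The difference was 1.55-fold in Sham (log2FC 0.63, SE 0.14, edgeR, adjusted p = 0.00473), and it was smaller and did not pass with library size as the sole scaling (0.35, adjusted p = 0.0542). After tFCI the difference of 0.31 did not pass (95% interval 0.02 to 0.60, edgeR, adjusted p = 0.170). Surgery gave 0.15 in WT (adjusted p = 0.405) and -0.17 in miKO, neither passing.

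B2m encodes the light chain that all class I heavy chains need to fold. It was measured at 2283.9, 1924.5 and 1837.2 CPM in WT-Sham, 4679.9, 4616.6 and 2953.7 CPM in miKO-Sham, 3408.9, 3166.1 and 2905.7 CPM in WT-tFCI, and at 2739.2, 2585.2 and 3404.9 CPM in miKO-tFCI. All WT-Sham libraries were below all others, and miKO-Sham 3 lay within the range of the tFCI groups. B2m was 2.03-fold higher in miKO-Sham than in WT-Sham (log2FC 1.02, SE 0.18, edgeR, adjusted p = 0.00115), and 1.20 without miKO-Sham 3. It was 1.57-fold above WT-Sham in WT-tFCI (log2FC 0.65, SE 0.18, edgeR, adjusted p = 0.0110), and 0.57 without WT-Sham 3 (adjusted p = 0.0577) or without WT-tFCI 2 (adjusted p = 0.0564).

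In miKO-tFCI vs. miKO-Sham the B2m difference of -0.48 passed the test below the fold limit (SE 0.18, edgeR, adjusted p = 0.0462). Without miKO-Sham 3 it was -0.66 (adjusted p = 0.00702), but it did not pass with the replicate number as a block (-0.47, adjusted p = 0.0605), or without miKO-Sham 1 (-0.41, adjusted p = 0.148), miKO-Sham 2 (-0.33, adjusted p = 0.186), miKO-tFCI 1 (-0.40, adjusted p = 0.102) or miKO-tFCI 2 (-0.42, adjusted p = 0.135). The genotypes differed by -0.11 after tFCI (95% interval -0.50 to 0.28). The interaction of B2m was -1.13 (SE 0.26, edgeR, adjusted p = 0.0241), -1.35 within batch 1 and -1.01 within batch 2. It did not pass without WT-Sham 2 (-1.12, adjusted p = 0.0692), WT-Sham 3 (-1.09, adjusted p = 0.0744), miKO-Sham 1 (-1.07, adjusted p = 0.0640), miKO-Sham 2 (-0.98, adjusted p = 0.0530), WT-tFCI 2 (-1.08, adjusted p = 0.0755), WT-tFCI 3 (-1.15, adjusted p = 0.0623) or miKO-tFCI 2 (-1.07, adjusted p = 0.0595).

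The 3 genes that deliver and load peptides differed in the direction of their values after tFCI in WT. Tap1, one chain of the peptide transporter, was measured at 67.2, 46.8 and 52.0 CPM in WT-Sham, 51.0, 43.3 and 71.2 CPM in miKO-Sham, 68.7, 84.1 and 97.3 CPM in WT-tFCI, and at 90.4, 68.6 and 62.3 CPM in miKO-tFCI. Every WT-tFCI library was above every WT-Sham library, although the gap between WT-Sham 1 and WT-tFCI 1 was small. The difference was 1.52-fold (log2FC 0.60, SE 0.21, edgeR, adjusted p = 0.0312), with 0.03 within batch 1 and 0.87 within batch 2. It did not pass without WT-Sham 2 (0.46, adjusted p = 0.173), WT-Sham 3 (0.54, adjusted p = 0.126), WT-tFCI 2 (0.54, adjusted p = 0.120), WT-tFCI 3 (0.41, adjusted p = 0.198) or miKO-tFCI 3 (0.57, adjusted p = 0.0508). In miKO-tFCI vs. miKO-Sham Tap1 gave 0.41 (edgeR, adjusted p = 0.125), and 0.67 without miKO-Sham 3 (adjusted p = 0.0167).

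Tap2, the other chain of the transporter, had the opposite sign. The CPM values were 101, 96.7 and 101 CPM in WT-Sham, 72.5, 71.0 and 76.2 CPM in miKO-Sham, 71.8, 75.7 and 76.3 CPM in WT-tFCI, and at 60.5, 63.5 and 69.0 CPM in miKO-tFCI. All WT-Sham libraries were above all others, all miKO-tFCI libraries were below all others, and miKO-Sham and WT-tFCI overlapped. Tap2 fell by 0.42 on the log2 scale in WT-tFCI vs. WT-Sham (SE 0.11, edgeR, adjusted p = 0.00886) and by 0.44 in miKO-Sham vs. WT-Sham (SE 0.11, edgeR, adjusted p = 0.0123), both under the fold limit. The latter did not pass without WT-Sham 1 (-0.41, adjusted p = 0.0570) or miKO-Sham 2 (-0.40, adjusted p = 0.0502). The further differences to miKO-tFCI, of -0.21 from WT-tFCI (adjusted p = 0.245) and -0.19 from miKO-Sham (adjusted p = 0.193), did not pass.

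Tapbp, which encodes tapasin, was measured at 310, 339 and 346 CPM in WT-Sham, 358, 324 and 374 CPM in miKO-Sham, 298, 274 and 288 CPM in WT-tFCI, and at 308, 282 and 332 CPM in miKO-tFCI. The groups overlapped except that WT-tFCI lay below both Sham groups, and no difference passed the test. The log2FC was -0.21 in WT-tFCI vs. WT-Sham (95% interval -0.48 to 0.05, edgeR, adjusted p = 0.197) and between -0.20 and 0.10 in the other 3 comparisons. Its exons share 904 bases (24.9%) with Gm19412 on the opposite strand, and with an unstranded kit reads of the pair cannot be told apart there. The same holds for Tap1 and Psmb9, which share 212 bases, for Tap2 with Gm15821 and Gm20496, and for Psmb8 with Gm20496 (14.7% of its exon bases).

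Nlrc5, the transactivator of class I promoters, had the lowest counts of the set, from 34 to 179 per library, and the largest change after tFCI. It was measured at 4.09, 6.05 and 6.87 CPM in WT-Sham, 5.41, 6.66 and 13.8 CPM in miKO-Sham, 16.2, 19.7 and 21.3 CPM in WT-tFCI, and at 15.3, 22.5 and 13.6 CPM in miKO-tFCI. Every WT-tFCI library was above every WT-Sham library, and miKO-Sham 3 was just above the lowest miKO-tFCI library. Nlrc5 was 3.39-fold above WT-Sham in WT-tFCI (log2FC 1.76, SE 0.28, edgeR, adjusted p = 0.000226). It also rose in miKO-tFCI vs. miKO-Sham (log2FC 1.02, SE 0.28, edgeR, adjusted p = 0.00870), by 1.44 without miKO-Sham 3. Within batch 2 alone the latter was 0.78 and did not pass (adjusted p = 0.0929). Neither the genotype difference after tFCI (-0.15, 95% interval -0.71 to 0.42) nor that in Sham (0.60, adjusted p = 0.185) passed. The interaction of -0.74 did not pass either (adjusted p = 0.358). Without miKO-Sham 3 the difference in Sham was 0.17 and the interaction -0.32.

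Among the other genes that regulate class I, Rfx5, a subunit of the complex that brings NLRC5 to promoters, was lower in miKO under both surgeries. Its level was 24.9, 26.0 and 25.9 CPM in WT-Sham, 11.4, 12.8 and 14.2 CPM in miKO-Sham, 18.2, 24.1 and 22.7 CPM in WT-tFCI, and at 11.3, 10.2 and 11.5 CPM in miKO-tFCI. No miKO library reached the lowest WT library. The exons of Rfx5 share 1471 bases (26.8%) with B230398E01Rik on the opposite strand, where reads of the pair cannot be told apart. The log2FC was -1.0 in Sham (95% interval -1.35 to -0.65, edgeR, adjusted p = 0.000523) and -0.97 after tFCI (SE 0.16, edgeR, adjusted p = 0.00203). Irf1, an interferon-induced activator of class I genes, gave -0.32 in WT-tFCI vs. WT-Sham (edgeR, adjusted p = 0.0657), and fell in miKO-Sham vs. WT-Sham by 0.46 (adjusted p = 0.0261) and in miKO-tFCI vs. WT-tFCI by 0.52 (adjusted p = 0.0229), under the fold limit.

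Of the 14 regulators tested, 2 were called higher and 2 lower in WT-tFCI vs. WT-Sham, where 20.9% and 11.7% of all genes were, with Irf2 the largest decrease (log2FC -0.67). For miKO-tFCI vs. miKO-Sham 2 were called lower and 0 higher, against 13.9% and 21.9% of all genes, led by Irf8 (-0.93), a lineage factor of microglia, whereas 5 were called without miKO-Sham 3 and 4 without miKO-tFCI 2. Between the Sham groups 2 were called higher in miKO, with Stat2 (0.70) the largest, and Rfx5 lower, against 8.58% and 6.80% of all genes, but 1 was called without WT-Sham 2. Ciita, the class II relative of Nlrc5, passed in no comparison (adjusted p of 0.321 or more), and its level was 21.9 CPM in miKO-tFCI 1 and 9.22 CPM in WT-tFCI 1 against 0.139 to 3.46 CPM elsewhere. Those were also the libraries with the highest dendritic cell sums of their groups (333 and 107 CPM). Ifng itself had 1 count over all libraries and was not tested, while Ifngr1, a chain of its receptor, fell by 1.16 in WT-tFCI vs. WT-Sham (edgeR, adjusted p = 0.000115) and by 1.10 in miKO-tFCI vs. miKO-Sham (edgeR, adjusted p = 0.000163).

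Psmb8 and Psmb9 encode the immunoproteasome subunits LMP7 and LMP2. Psmb8 was measured at 298, 183 and 181 CPM in WT-Sham, 195, 206 and 201 CPM in miKO-Sham, 340, 291 and 248 CPM in WT-tFCI, and at 321, 209 and 199 CPM in miKO-tFCI. Replicate 1 was the highest of its group in WT-Sham and in both tFCI groups, and the groups overlapped apart from WT-tFCI above miKO-Sham. In WT-tFCI vs. WT-Sham Psmb8 passed the test under the fold limit (log2FC 0.44, SE 0.16, edgeR, adjusted p = 0.0387). This was lost without WT-Sham 2 (0.34, adjusted p = 0.190), WT-Sham 3 (0.34, adjusted p = 0.189), WT-tFCI 1 (0.48, adjusted p = 0.0708), WT-tFCI 2 (0.31, adjusted p = 0.223), WT-tFCI 3 (0.43, adjusted p = 0.0960) or miKO-tFCI 3 (0.40, adjusted p = 0.0605). The genotype difference after tFCI was -0.29 (95% interval -0.63 to 0.04, adjusted p = 0.256).

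Psmb9 was measured at 75.2, 62.3 and 60.5 CPM in WT-Sham, 59.1, 61.9 and 59.6 CPM in miKO-Sham, 70.4, 63.5 and 62.6 CPM in WT-tFCI, and at 79.5, 49.9 and 52.2 CPM in miKO-tFCI. Apart from WT-tFCI, whose libraries were all above those of miKO-Sham, the groups overlapped and no comparison passed. The log2FC was -0.01 in WT-tFCI vs. WT-Sham, with a 95% interval from -0.30 to 0.29.

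The constitutive subunits that LMP7, LMP2 and MECL-1 replace are encoded by Psmb5, Psmb6 and Psmb7, and all 3 rose after tFCI. The log2FC in WT-tFCI vs. WT-Sham was 0.76 for Psmb5 (edgeR, adjusted p = 0.000311), 1.09 for Psmb6 (adjusted p = 3.34e-05) and 0.83 for Psmb7 (adjusted p = 0.000252). In miKO-tFCI vs. miKO-Sham it was 0.62, 0.80 and 0.72. Psmb10, which encodes MECL-1, gave 0.02 (adjusted p = 0.925) and -0.05 in the same comparisons.

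The mean ratios of immunoproteasome to constitutive counts within a library were highest in WT-Sham and lowest in miKO-tFCI. The ratio of Psmb9 to Psmb6 was 0.403, 0.406 and 0.433 in WT-Sham, 0.231, 0.234 and 0.265 in miKO-Sham, 0.204, 0.171 and 0.209 in WT-tFCI and 0.183, 0.108 and 0.130 in miKO-tFCI. WT-Sham lay above all other groups, and the tFCI groups overlapped. The mean ratio of Psmb10 to Psmb7 was 1.51 in WT-Sham, 1.06 in miKO-Sham, 0.866 in WT-tFCI and 0.625 in miKO-tFCI, with no overlap between any groups compared. That of Psmb8 to Psmb5 was 3.59, 2.64, 2.86 and 2.01, and the ranges did not overlap within any of the 4 comparisons. Of the 12 differences, 11 gave p = 0.100 in an exact two-sided permutation test (adjusted p = 0.109), the smallest p that 3 libraries against 3 allow, and the difference of Psmb9 to Psmb6 between the tFCI groups gave p = 0.200. For Psmb8 to Psmb5 in miKO-tFCI vs. miKO-Sham the log2 difference was -0.03 within batch 1 and -0.56 within batch 2.

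**Figure D3:**
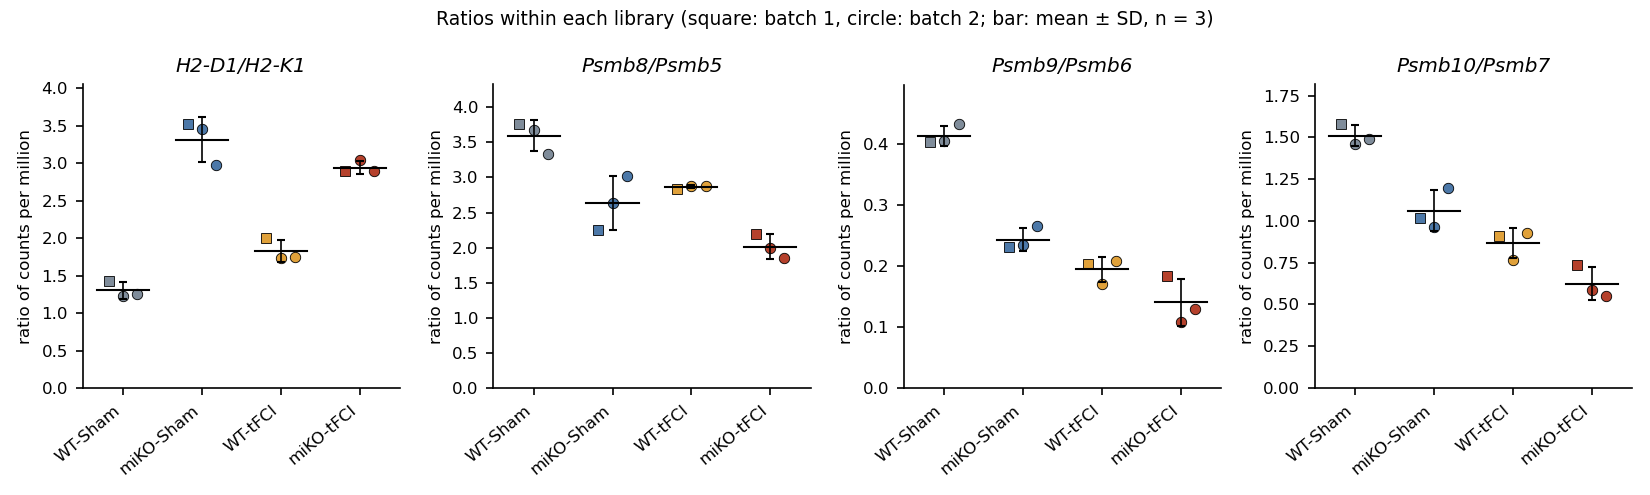
Ratio of CPM of 2 genes in the same library (vertical axes, each from 0), with 3 libraries per group, squares for batch 1, circles for batch 2 and bars for the mean ± SD. H2-D1 to H2-K1 is highest in the miKO groups (means 3.31 and 2.94), whereas the 3 ratios of immunoproteasome to constitutive subunits are highest in WT-Sham and lowest in miKO-tFCI.

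Most constitutive 20S subunits were called higher after tFCI in both genotypes. Of 14 constitutive 20S subunits 11 were called higher in WT-tFCI vs. WT-Sham, as were 9 in miKO-tFCI vs. miKO-Sham, with 0 lower in either, against 20.9% and 21.9% of all genes. Without WT-tFCI 2 the former was 6, and without miKO-tFCI 1 the latter was 5. The largest increases were those of Psmb6 in WT and Psmb4 in miKO (log2FC 0.88), a catalytic and a structural subunit of the inner rings. Of 18 subunits of the 19S cap, which recognizes tagged proteins, 3 and 8 were called higher in the same comparisons, against 20.9% and 21.9% of all genes. They were led by Psmd8 (0.86) and Psmd14 (1.16), and 1 was called in WT without WT-Sham 1. All 18 had a log2FC above 0 in both comparisons, with medians of 0.35 and 0.52, where those of all genes were 0.02 and 0.03. With no fold limit 8 and 14 of the 18 passed as higher, against 23.5% and 24.5% of all genes. Between genotypes Psma1, a subunit of the outer rings, gave 0.59 after tFCI (adjusted p = 0.0118), at the fold limit, and 0.80 in Sham (adjusted p = 0.000578). The former did not pass without WT-tFCI 1 (0.56, adjusted p = 0.0525), WT-tFCI 3 (0.54, adjusted p = 0.0820) or miKO-tFCI 3 (0.46, adjusted p = 0.0601).

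The activator PA28, a ring that opens the proteasome and is also induced by interferon, is encoded by Psme1 and Psme2. Psme2 was measured at 94.0, 71.0 and 53.2 CPM in WT-Sham, 88.0, 98.6 and 71.7 CPM in miKO-Sham, 143, 134 and 114 CPM in WT-tFCI, and at 184, 134 and 98.5 CPM in miKO-tFCI. It rose in WT-tFCI vs. WT-Sham (log2FC 0.87, edgeR, adjusted p = 0.00204), where no libraries overlapped. It also rose in miKO-tFCI vs. miKO-Sham (0.65, edgeR, adjusted p = 0.0110), but not without miKO-Sham 1 (0.51, adjusted p = 0.0768) or miKO-tFCI 1 (0.48, adjusted p = 0.0810). Psme1 rose in WT (0.59, edgeR, adjusted p = 0.00654), but fell short without WT-Sham 2 (0.53, adjusted p = 0.0531), WT-Sham 3 (0.46, adjusted p = 0.0723) or WT-tFCI 2 (0.42, adjusted p = 0.0788). Psme1 and Psme2 belong to a list of 5 genes, of which 3 were called higher and 0 lower in WT-tFCI vs. WT-Sham. Among all genes 20.9% were called higher and 11.7% lower. Of that list 1 was called without WT-Sham 2, WT-Sham 3, WT-tFCI 2, WT-tFCI 3, miKO-tFCI 1 or miKO-tFCI 3. Pomp, the assembly factor of new proteasomes, was called in miKO-Sham vs. WT-Sham (0.65, adjusted p = 0.00473), but not without WT-Sham 3.

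Of 11 genes for trimming, loading and export, 3 were called higher and 0 lower in WT-tFCI vs. WT-Sham, against 20.9% and 11.7% of all genes, led by Thop1, a cytosolic peptidase that destroys class I peptides (log2FC 1.04, edgeR, adjusted p = 0.00113). For miKO-tFCI vs. miKO-Sham, Thop1 was called higher (0.70, adjusted p = 0.0123) and Tapbpl, a tapasin relative that edits peptides, lower (-0.67, adjusted p = 0.00220), against 21.9% and 13.9% of all genes.

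**Figure D4:**
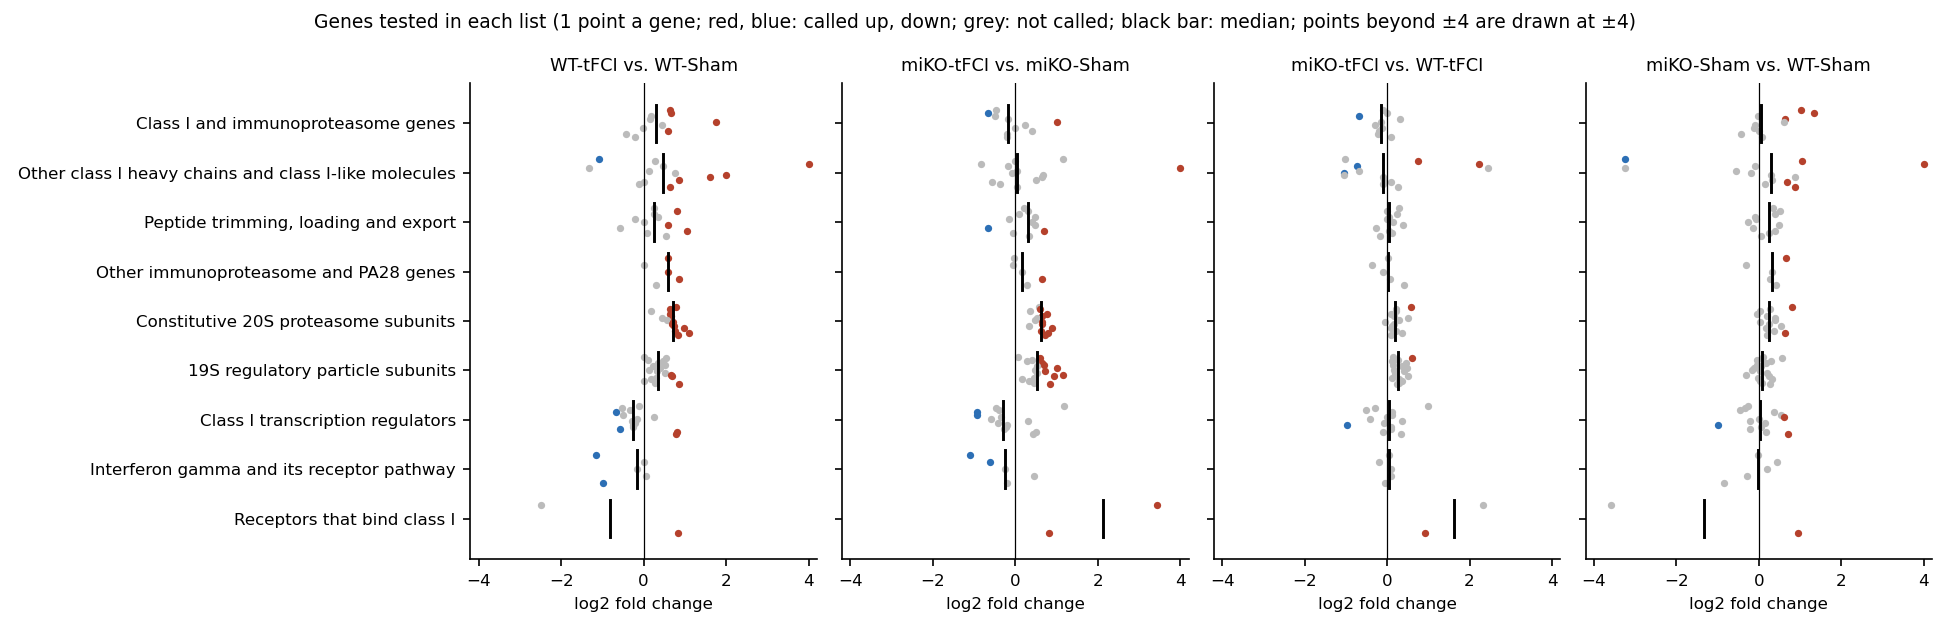
Fitted log2 fold changes (horizontal axes) of every gene tested in each pathway list, 1 point per gene, red or blue where called higher or lower, with a black bar at the list median and points beyond ±4 drawn at ±4. The constitutive 20S subunits stand to the right in both comparisons of tFCI with Sham (11 and 9 of 14 called), whereas the class I and immunoproteasome genes spread to both sides of 0 in miKO-tFCI vs. miKO-Sham.

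Beyond the 3 heavy chains above, 13 of 22 other class I and class I-like genes could be tested. In WT-tFCI vs. WT-Sham 5 were called higher and 1 lower, against 20.9% and 11.7% of all genes, and 3 were called without WT-Sham 3 or without WT-tFCI 3. For miKO-tFCI vs. miKO-Sham 1 was called higher and 0 lower, against 21.9% and 13.9% of all genes, and 0 to 5 were called without single libraries, 0 without miKO-Sham 1 and 5 without miKO-tFCI 3. Between the Sham groups 4 were called higher and 1 lower in miKO, against 8.58% and 6.80% of all genes. After tFCI 2 were called higher and 2 lower in miKO, against 4.08% and 4.71%, which became 1 and 1 without WT-tFCI 1, WT-tFCI 3 or miKO-tFCI 3. H2-M2, a class I gene of the M region, had 0 counts in every WT-Sham library but 33, 64 and 52 in miKO-Sham, 1, 15 and 6 in WT-tFCI and 22, 34 and 40 in miKO-tFCI. It was called higher in miKO in Sham (edgeR, adjusted p = 2.91e-05) and after tFCI (edgeR, adjusted p = 0.0205), the latter not without WT-tFCI 1 (adjusted p = 0.0692), WT-tFCI 3 (adjusted p = 0.114) or miKO-tFCI 3 (adjusted p = 0.0686).

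Cd1d1, which presents lipids to natural killer T cells, moved the other way in miKO. It had 131, 122 and 191 counts in WT-Sham, 7, 12 and 19 in miKO-Sham, 54, 77 and 64 in WT-tFCI and 65, 19 and 19 in miKO-tFCI. All miKO-Sham libraries were below all WT libraries. Its log2FC was -3.25 in miKO-Sham vs. WT-Sham (SE 0.43, edgeR, adjusted p = 9.34e-05) and -1.08 in WT-tFCI vs. WT-Sham (SE 0.37, edgeR, adjusted p = 0.0324). The latter did not pass without WT-Sham 3 (-0.91, adjusted p = 0.126), WT-tFCI 1 (-0.87, adjusted p = 0.150) or WT-tFCI 3 (-1.15, adjusted p = 0.0712). H2-Q6, which has close copies in the Q region, gave -1.04 in miKO-tFCI vs. WT-tFCI (adjusted p = 0.0458). It did not pass with the replicate number as a block (-1.04, adjusted p = 0.050), nor without miKO-tFCI 3 (adjusted p = 0.201) or any 1 of 6 other libraries. H2-Q10 reached at most 31 counts in a library.

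Of 5 receptors for class I, Pirb, an inhibitory receptor of myeloid cells, was called higher in all 4 comparisons, with log2FC of 0.84 in WT-tFCI vs. WT-Sham, 0.81 in miKO-tFCI vs. miKO-Sham, 0.91 in miKO-tFCI vs. WT-tFCI and 0.95 in miKO-Sham vs. WT-Sham. Klrd1, the CD94 chain that binds Qa-1, had 244 counts in miKO-tFCI 1 and at most 33 in any other library. Its call in miKO-tFCI vs. miKO-Sham was lost without that library (log2FC 0.95, adjusted p = 0.606) and without miKO-Sham 1 (1.71, adjusted p = 0.378). The other 3 receptors did not pass the filter on low counts.

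The members did not vary as 1 block across the 12 libraries. Pearson's r of each member with the mean of the other 9 (log2 CPM with batch removed, scaled per gene) ran from -0.58 for Tap2 to 0.36 for H2-D1, and the points share library, group and batch. The non-members most like the members' mean were 1810043G02Rik (r = 0.904), Pde4b, a phosphodiesterase that breaks down cyclic AMP (r = 0.884), Tm2d2 (r = 0.846), Gm45828 (r = 0.838) and Elovl1, an elongase of very long chain fatty acids (r = 0.828). Mean Pde4b was 93.7 CPM in WT-Sham, 123 in miKO-Sham, 153 in WT-tFCI and 98.1 in miKO-tFCI. These values are descriptions over 12 libraries in 4 groups.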

How the data were processed

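Count files for 12 libraries of sorted mouse microglia were used. The libraries came from an unstranded SMART-Seq kit and paired-end sequencing. As deposited, the authors' values are whole-number counts per gene from HTSeq 1.99.2, made from reads checked with FastQC 0.11.9, trimmed with Trim Galore and aligned with HISAT2 2.2.1 to mm10 (GRCm38.p6), per the submitters' processing notes. Rows that name no gene were left out of library sizes. Reads on genes were 30.7 to 38.5% of reads and those not aligned uniquely 3.59 to 5.25%. Of 55401 identifiers, 55141 matched GENCODE M21, which gave symbols, lengths and coordinates, and promoter windows came from RefSeq.

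The counts were tested with edgeR 4.0.16 in R 4.3.3: filterByExpr, trimmed mean of M values (TMM) scaling with factors from 0.864 to 1.11, group and batch as terms, all 12 libraries in 1 fit, and Benjamini-Hochberg adjustment over 16451 genes. The common biological coefficient of variation was 0.199. CPM are on the TMM scale, and log2 CPM used a prior count of 2. The study's own limits were used for a call, an adjusted p under 0.05 and an absolute log2FC above 0.58. Ratios were compared with an exact permutation test. Groups came from the labels. Spread between libraries is spread between pools of hemispheres. The scripts were tested on simulated data.

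Same-numbered libraries of WT-tFCI and miKO-tFCI deviated together (correlations 0.67, 0.33 and 0.32). In the other pairs of groups at least 1 of 3 correlations was 0.1 or lower. Replicate 1 was the single library of batch 1 in each group, so its correlation and batch cannot be told apart. The main fit held batch and not the replicate number, which was a block in an alternative.

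Named were the members, Hdac3, a fixed set of partners (Psmb5, Psmb6, Psmb7, Psmb10, Psme1, Psme2, Irf1, Rfx5, Ciita and Ifng), the largest called increase and decrease per pathway list and comparison, and the 5 genes most like the members. A further partner named by the rule is not reported here. The members and lists were chosen with earlier results of these data known. Alternatives covered scaling, filters, DESeq2 1.42.0, batch, the replicate block, the groups in the fit and each library left out.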

Additional observations from a re-analysis of the deposited data

Results flagged for a closer look

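The effect of tFCI on H2-D1, a classical class I heavy chain, differed between the genotypes. It was 0.66 on the log2 scale in WT and -0.66 in miKO, and the test of the difference itself gave -1.32 (SE 0.18, edgeR's quasi-likelihood test, adjusted p = 0.000796). Every WT-tFCI library lay above every WT-Sham library, and every miKO-tFCI library lay below every miKO-Sham library.

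The effect of tFCI on B2m, the light chain, differed in the same direction. It was 0.65 in WT and -0.48 in miKO, and the difference was -1.13 (SE 0.26, edgeR's quasi-likelihood test, adjusted p = 0.0241). All WT-tFCI libraries were above all WT-Sham libraries, whereas miKO-Sham 3 (2953.7 CPM) lay within the range of miKO-tFCI. Without miKO-Sham 3 the difference was -1.31 (adjusted p = 0.00389). It kept its sign but lost the test without any 1 of 7 other libraries, with values from -1.15 to -0.98 and adjusted p from 0.0530 to 0.0755.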

How the results depend on the processing

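Precision is limited by 3 pools per group, and Nlrc5 had as few as 34 counts in a library. Scaling by library size alone shifted the median log2FC of all genes from 0.04 to -0.23 in miKO-Sham vs. WT-Sham and from 0.03 to 0.16 in miKO-tFCI vs. miKO-Sham, and the share of called genes that were higher from 55.8% to 25.8% in the former and from 61.2% to 70.9% in the latter (46.4% to 31.6% in miKO-tFCI vs. WT-tFCI, and 32.8% to 51.1% in the interaction). In WT-tFCI vs. WT-Sham that share was 64.1%, and 53.0% with at least 10 counts in every library. Genes called higher and lower in miKO-tFCI vs. WT-tFCI numbered 671 and 775, but 213 and 488 with no batch term and 1542 and 993 with only the groups compared, and in the interaction 206 and 423, but 85 and 218 with no batch term, 458 and 814 with no filter and 344 and 622 with DESeq2. The higher share in miKO-tFCI vs. WT-tFCI was 30.4% with no batch term and 60.8% with only the groups compared.

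The number of members called in the interaction was 1 in place of 2 with no batch term and with miKO-Sham 1 and 2 averaged, the latter chosen after seeing the data. In miKO-tFCI vs. miKO-Sham it was 1 in place of 2 with library size alone and with only the groups compared, and 4 with no limit on the fold. The cause was not tested. Without each library in turn it was 1 to 3 in the interaction, 2 to 3 in miKO-Sham vs. WT-Sham, 2 to 4 in miKO-tFCI vs. miKO-Sham, 1 in miKO-tFCI vs. WT-tFCI, and 2 to 4 in WT-tFCI vs. WT-Sham. The interaction had 1 without WT-Sham 2 or 3, miKO-Sham 1 or 2, WT-tFCI 2 or 3, or miKO-tFCI 2, and 3 without miKO-tFCI 1, which added H2-K1, miKO-tFCI vs. miKO-Sham had 4 without miKO-Sham 3, and WT-tFCI vs. WT-Sham had 2 without WT-Sham 3 or WT-tFCI 2. With the replicate block the counts were 2, 3, 2, 1 and 4 in the same order. Among the members the block ended no other test than that of B2m given above and turned Tap1 in miKO-Sham vs. WT-Sham to -0.01. Among the other genes it ended that of H2-Q6 in miKO-tFCI vs. WT-tFCI, where same-numbered libraries deviated together (-1.04, adjusted p = 0.050), and that of Klrd1 in the interaction (5.90, adjusted p = 0.0550).

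H2-D1 in miKO-tFCI vs. WT-tFCI was -0.09 with library size alone, -0.01 with no filter and -0.05 in batch 2 (-0.04 to 0.03 without single libraries). In miKO-Sham vs. WT-Sham, H2-K1 was 0.01 with upper quartile factors (-0.06 to 0.05), Psmb8 was 0.15 in batch 2 and 0.10 averaged (-0.17 to 0.12), Psmb9 was -0.18 to 0.01 without single libraries, Tapbp was -0.19 with library size alone, and Tap1 was -0.25 with library size alone, -0.00 with no filter, -0.02 with at least 10 counts and -0.00 with no batch term (-0.25 to 0.16). Nlrc5 in miKO-tFCI vs. WT-tFCI was -0.30 to 0.07 without single libraries, and Tapbp there was -0.00 with library size alone. Psmb8 in miKO-tFCI vs. miKO-Sham was -0.03 in batch 2. Psmb9 was 0.01 with DESeq2 size factors, 0.11 with library size alone, 0.05 with at least 10 counts, 0.01 with DESeq2 and 0.01 with no batch term there (-0.24 to 0.06), 0.01, 0.17, 0.05, 0.01 and 0.02 in the interaction (-0.20 to 0.07), and 0.00 with at least 10 counts, 0.00 with only the groups compared and 0.04 in batch 2 in WT-tFCI vs. WT-Sham (-0.08 to 0.05). In the interaction Tapbp was -0.00 with upper quartile factors and -0.01 averaged (-0.05 to 0.07), and Tap1 was -0.45 to 0.05 without single libraries.

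Of the members' values under all alternatives, 1022 kept direction and side of the threshold, 48 lost the test, 5 gained it and 65 turned sign. Among those lost with no library left out were B2m in the interaction with no batch term (-1.14, adjusted p = 0.0569) and in batch 2 (-1.06, adjusted p = 0.0521), Tap1 in WT-tFCI vs. WT-Sham with library size alone (0.56, adjusted p = 0.0659), and Nlrc5 and H2-K1 in miKO-tFCI vs. miKO-Sham with only the groups compared (1.01, adjusted p = 0.0506, and -0.51, adjusted p = 0.0619). The interaction of H2-K1 passed with DESeq2 (-0.64, adjusted p = 0.00450) and with no filter (-0.67, adjusted p = 0.0368).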
